A study of Mus musculus with 6 samples.

Results

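The aminoacyl-tRNA synthetases described here are 35 of the 23282 gene rows of an RNA-seq count table, taken by their gene symbols. Of these genes, 19 encode cytosolic enzymes and 16, whose symbols end in 2, encode mitochondrial ones. The samples were 6 libraries of TC-1 cells, a mouse line labelled as lung adenocarcinoma, which was made by transforming lung cells with human papillomavirus oncogenes and activated ras. In 3 libraries the cells were untreated, and in 3 they had received murine recombinant interferon-gamma (IFN-gamma) at 20 ng/ml for 72 h. All libraries come from this single line, and whether the replicates are separate cultures is not stated, so p-values measure a spread that may be technical.

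Synthetases join each amino acid to its own tRNAs, which is the step that fixes the genetic code in translation. In mammals most amino acids have separate nuclear genes for the cytosolic and the mitochondrial enzyme, while Gars (glycine) and Kars (lysine) each encode both forms. In the cytosol the enzymes encoded by Dars, Eprs, Iars, Kars, Lars, Mars, Qars and Rars sit in a multi-tRNA synthetase complex, and many cytosolic synthetase genes are known targets of ATF4, the transcription factor of the integrated stress response.

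Libraries held between 7302687 and 10861336 counts, and 12191 genes had enough counts to be tested, among them all 35 synthetase genes. Levels are given as CPM, the counts of a gene per 1e6 counts of its library after scaling with TMM factors. Changes are log2 fold changes of IFN-gamma against untreated libraries with their standard errors, and adjusted p-values come from edgeR's quasi-likelihood test over all genes tested, with a threshold of 0.05. All 4 genes used to check the treatment rose, among them Irf1 from 72.9 ± 9.15 to 900 ± 18.8 CPM (SD, n = 3) and Gbp2 from 17.4 ± 0.784 to 1932 ± 46.6 CPM. Of 8 lung epithelial markers, 5 had at most 5 counts in every library and Sftpb had 0 in all. The list summed to 15.4 to 17.6 CPM in untreated and 8.37 to 9.72 CPM in IFN-gamma libraries, and Krt19 was called lower. The 6 mesenchymal markers summed to 10192 to 10476 CPM untreated and 7411 to 7770 CPM after IFN-gamma, and Vim, Col1a1, Col3a1, Sparc and Fn1 were called lower. Of 10 myeloid markers 7 had at most 5 counts in every library, and the sum of the list was 39.4 to 48.7 CPM in untreated and 74.8 to 81.7 CPM in IFN-gamma libraries. It came mostly from Cd14, Cd68 and Mpeg1, of which Cd68 and Mpeg1 were called higher and Cd14 did not pass. Mpeg1 had at most 0.214 CPM in untreated and 24.8 to 28.2 CPM in IFN-gamma libraries. The part of these marker changes in the synthetase values was not tested. The 5 T and NK cell markers summed to at most 0.372 CPM and the 3 endothelial markers to at most 1.78 CPM in any library. The ribosomal precursor row Rn45s took 5.81% to 9.69% of the counts of a library. In bulk RNA a change in the share of cells and a change in RNA per cell cannot be told apart.

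After IFN-gamma, 8 of the 19 cytosolic synthetase genes rose, 0 fell and 11 did not pass the test. The genes that rose were Farsa, Kars, Rars, Tars, Aars, Nars, Gars and Lars, by 1.15-fold (Lars) to 1.36-fold (Farsa). Of the 16 mitochondrial genes, 1 rose (Tars2, 1.38-fold) and 0 fell. At an unadjusted p under 0.05, 10 cytosolic genes and 1 mitochondrial gene were higher, and 1 gene of each compartment was lower (Dars and Nars2). The share of all genes at that unadjusted threshold is not given here. DESeq2 and limma called 0 lower in both compartments. Over all genes tested, 9.88% were called higher and 7.56% lower. Among genes with a mean level within the range of the cytosolic members (49.1 to 441 CPM over all libraries) 15.6% were called higher and 11.9% lower. Within the range of the mitochondrial members these shares were 7.54% and 6.17%. The split between directions over all genes depended on the scaling, since 56.6% of the changed genes were higher with TMM factors, 41.6% with upper-quartile factors and 44.5% with total counts alone. Under upper-quartile scaling, which called 7.85% of all genes higher and 11% lower, 6 cytosolic genes passed upward and Dars passed downward. Scaling by library totals, which called 8.13% higher and 10.2% lower, passed 7 upward and again Dars downward. The median log2 fold change was 0.15 over the cytosolic and 0.00152 over the mitochondrial genes, beside -0.00825 over all genes tested. Under upper-quartile scaling the mitochondrial median was -0.05, beside -0.06 over all genes tested.

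**Figure D1:**
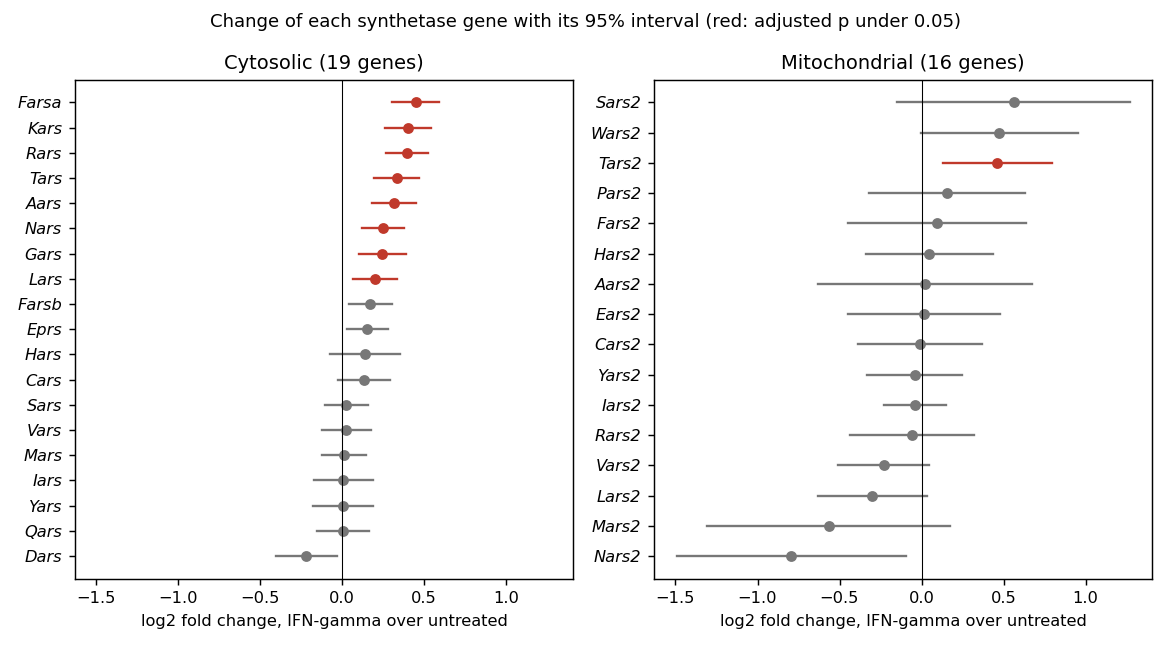
Log2 fold change of each synthetase gene (points) with its 95% interval (lines), cytosolic genes on the left and mitochondrial genes on the right; red marks an adjusted p under 0.05. The 8 red cytosolic genes lie between 0.20 and 0.45, and intervals of mitochondrial genes are mostly wider, with a median standard error of 0.21 against 0.07.

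Promoter sequences were available in the RefSeq table (GRCm38.p6) for 27 of the 35 genes, from 250 bases before to 50 bases after the annotated start. They were searched on both strands for 3 short motifs. TGATGNAA is the core of the amino acid response element, which ATF4 and C/EBP proteins bind. TTCNNNGAA is the gamma activated site, which STAT dimers bind, and the third motif was the core of the interferon-stimulated response element, a pair of GAAA blocks with a short spacer. Of all 32851 promoters, 3.97% held TGATGNAA, 8.3% held TTCNNNGAA and 3.44% held the interferon-stimulated response element core.

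TGATGNAA stood in a promoter of 3 of the 5 cytosolic genes that rose and had a sequence (Aars, Gars and Tars). It stood in 2 of the 8 that did not pass (Iars and Yars) and in 0 of the 14 mitochondrial genes with a sequence. Genes were counted here, while the shares above are of promoters, and Aars2 had 2 promoters. In Aars, Gars and Tars a match began before the start, at positions -112, -30 and -15, and Aars had another at 10. In Iars and Yars it began after the start, at positions 8 and 4. TTCNNNGAA stood in Aars (position -88), Kars (-9) and the mitochondrial gene Nars2 (-147), and the interferon-stimulated response element core in Qars (-199). A match of letters is a description of the sequence and not a measured binding site. The 150 bases before the start are given for the genes that rose and hold a match, and for Farsa, which had the largest rise of the cytosolic genes and holds none. Capitals mark TTGCATCA or TTTCATCA, which are TGATGNAA on the other strand, and TTCNNNGAA.
Aars, chr8:111033692-111033841, plus strand: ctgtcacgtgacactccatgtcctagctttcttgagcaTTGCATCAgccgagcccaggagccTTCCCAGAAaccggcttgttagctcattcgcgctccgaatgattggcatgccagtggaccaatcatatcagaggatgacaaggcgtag
Gars, chr6:55037851-55038000, plus strand: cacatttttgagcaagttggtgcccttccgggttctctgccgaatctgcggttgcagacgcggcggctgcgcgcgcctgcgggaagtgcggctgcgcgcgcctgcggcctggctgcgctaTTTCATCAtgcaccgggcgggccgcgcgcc
Tars, chr15:11399659-11399808, minus strand: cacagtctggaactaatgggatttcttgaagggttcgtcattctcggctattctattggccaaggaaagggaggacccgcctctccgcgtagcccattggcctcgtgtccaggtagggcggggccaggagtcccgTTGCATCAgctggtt
Kars, chr8:112011355-112011504, minus strand: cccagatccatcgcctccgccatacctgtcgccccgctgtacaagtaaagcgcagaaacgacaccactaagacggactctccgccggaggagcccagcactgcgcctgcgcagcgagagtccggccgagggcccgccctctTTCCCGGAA
Farsa, chr8:84856836-84856985, plus strand: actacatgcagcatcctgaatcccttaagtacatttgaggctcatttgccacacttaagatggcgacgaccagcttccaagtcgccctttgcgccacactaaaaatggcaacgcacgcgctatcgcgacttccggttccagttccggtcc

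Farsa encodes the catalytic alpha subunit of cytosolic phenylalanyl-tRNA synthetase. It had 155, 149 and 177 CPM in untreated replicates 1, 2 and 3, and 201, 226 and 230 CPM in the IFN-gamma replicates. All treated libraries lay above all untreated ones, and the gene rose by 0.45 ± 0.07 (adjusted p = 6.4e-06). Its partner Farsb, which encodes the beta subunit of the same enzyme, had 170, 171 and 173 CPM untreated and 196, 201 and 181 CPM after IFN-gamma. The groups did not overlap for Farsb either, but its change of 0.17 ± 0.07 did not pass (adjusted p = 0.069). Without IFN-gamma replicate 3 it passed, with a value of 0.22 (adjusted p = 0.013). The difference between the subunits was not tested.

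Kars, which supplies lysyl-tRNA synthetase to cytosol and mitochondria, had 249, 256 and 244 CPM untreated and 344, 283 and 361 CPM after IFN-gamma. IFN-gamma replicate 2 was the lowest treated library, though still above every untreated one, and Kars rose by 0.40 ± 0.07 (adjusted p = 3.2e-05). Gars, which likewise serves both compartments with glycyl-tRNA synthetase, had 181, 203 and 168 CPM untreated and 228, 224 and 200 CPM after IFN-gamma. Its groups overlapped, because IFN-gamma replicate 3 lay below untreated replicate 2. Gars rose by 0.24 ± 0.07 (adjusted p = 0.011). It no longer passed when untreated replicate 1, untreated replicate 3 or IFN-gamma replicate 1 was left out (adjusted p = 0.057, 0.118 and 0.067), nor under upper-quartile scaling (adjusted p = 0.056). Without Gars and Kars, 6 of the 17 cytosolic genes rose.

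Rars, the arginyl-tRNA synthetase gene, had 184, 193 and 173 CPM untreated and 246, 243 and 235 CPM after IFN-gamma. Treated libraries differed little among themselves and stood above all untreated ones, and the rise was 0.39 ± 0.06 (adjusted p = 9.0e-06). Tars, the threonyl-tRNA synthetase gene, had 214, 205 and 177 CPM untreated and 251, 259 and 240 CPM after IFN-gamma, a rise of 0.33 ± 0.07 (adjusted p = 0.00028). Aars, the alanyl-tRNA synthetase gene, had 164, 160 and 161 CPM untreated and 205, 209 and 190 CPM after IFN-gamma, a rise of 0.32 ± 0.07 (adjusted p = 0.0004). In both genes all treated libraries were above all untreated ones, and the untreated libraries of Aars were nearly equal.

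Nars, the asparaginyl-tRNA synthetase gene, had 319, 314 and 297 CPM untreated and 380, 397 and 327 CPM after IFN-gamma. The groups did not overlap, although IFN-gamma replicate 3 came close to the untreated libraries, and the rise was 0.25 ± 0.06 (adjusted p = 0.0043). Lars encodes leucyl-tRNA synthetase, an enzyme also known as a leucine sensor upstream of mTORC1. It had 174, 189 and 186 CPM untreated and 197, 208 and 225 CPM after IFN-gamma. It rose by 0.20 ± 0.07 (adjusted p = 0.031) with groups that did not overlap. Lars no longer passed when untreated replicate 1, 2 or 3 was left out (adjusted p = 0.163, 0.0522 and 0.0627), without IFN-gamma replicate 3 (0.104), or under upper-quartile or library-total scaling (0.125 and 0.116). Farsa, Kars, Rars, Tars, Aars and Nars passed under all 15 alternatives tried.

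**Figure D2:**
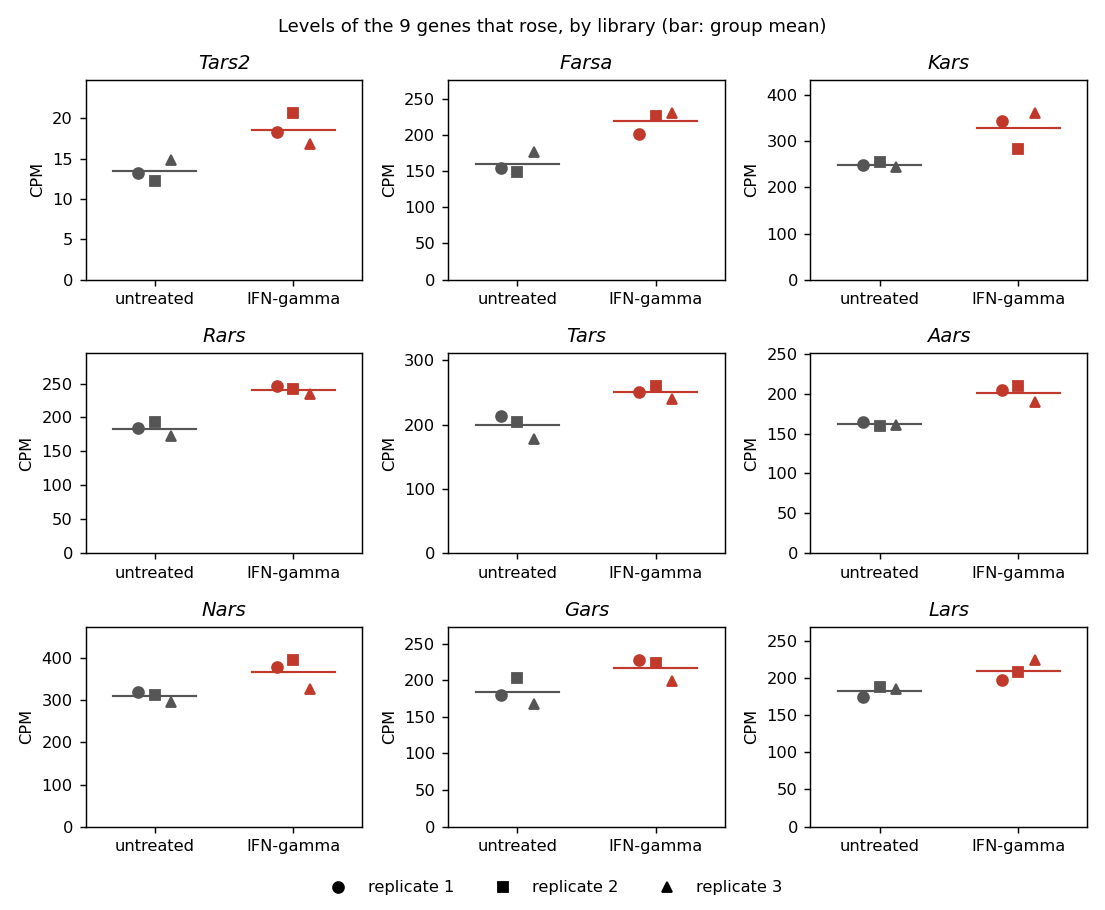
CPM in each library for the 9 synthetase genes that rose, untreated libraries in grey and IFN-gamma libraries in red, with bars at the group means and a marker shape for each replicate number. Groups overlap for Gars and for no other gene shown.

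The remaining 11 cytosolic genes lay between -0.22 and 0.17. Eprs encodes the bifunctional glutamyl-prolyl-tRNA synthetase, which in human myeloid cells leaves the complex after IFN-gamma to join the translation-silencing GAIT complex. It had 362, 353 and 354 CPM untreated and 401, 426 and 361 CPM after IFN-gamma. With 2 treated libraries above and 1 within the untreated range, its change of 0.15 ± 0.06 did not pass (adjusted p = 0.079). Without IFN-gamma replicate 3 it passed with 0.22 (adjusted p = 0.0032). None of the 5 GAIT partner and regulator genes listed (Rpl13a, Syncrip, Gapdh, Dapk1 and Dapk3) passed with edgeR, DESeq2 or limma, and 0 had an unadjusted p under 0.05. By its known mechanism GAIT is regulated after transcription, which RNA counts do not measure.

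Dars, the aspartyl-tRNA synthetase gene, was the only cytosolic member with a negative value. It had 77.4, 76.9 and 73.9 CPM untreated and 65.1, 58.2 and 72.8 CPM after IFN-gamma. All treated libraries lay below all untreated ones, but the change of -0.22 ± 0.09 did not pass (adjusted p = 0.098). It passed as lower with upper-quartile factors (-0.27, adjusted p = 0.032), with total counts alone (-0.26, adjusted p = 0.044) and without IFN-gamma replicate 3 (-0.30, adjusted p = 0.022). Groups did not overlap in 8 of the 19 cytosolic genes in the upward and in 1 in the downward direction, beside 16.2% and 15.6% of all genes tested.

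Several cytosolic genes stayed close to their untreated level. Qars, the glutaminyl-tRNA synthetase gene, had 96.6, 95.2 and 95.7 CPM untreated and 93.3, 93.4 and 102 CPM after IFN-gamma, a change of 0.00322 with a 95% interval of -0.16 to 0.16. Sars, the seryl-tRNA synthetase gene, had a change of 0.02 (interval -0.11 to 0.16) and Mars, the methionyl-tRNA synthetase gene, 0.01 (interval -0.13 to 0.14). The valyl, isoleucyl and tyrosyl genes Vars, Iars and Yars had values from 0.00372 to 0.02, and the signs of Qars, Sars, Mars, Vars, Iars and Yars each changed under some alternatives. Cars (cysteine) and Hars (histidine) had 0.13 ± 0.08 and 0.14 ± 0.10, which did not pass. For 10 of these 11 genes the 95% interval lay below 0.32, the median of the 8 genes that rose, and the exception was Hars. The same fit sorted the genes into those that rose and those that did not pass, so the separation is partly built in. The interval of Farsa began at 0.30 and so lay wholly above that of Qars.

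Within the cytosolic set, 3 of the 8 genes of the multi-tRNA synthetase complex rose (Kars, Rars and Lars), and 5 of the 11 outside it. The medians were 0.08 and 0.17. By catalytic class, 2 of the 8 class I genes rose (Rars and Lars) and 6 of the 10 class II genes (Farsa, Kars, Tars, Aars, Nars and Gars), with medians of 0.02 and 0.25, while Eprs belongs to both classes. Over all genes tested 9.88% were called higher, and 15.6% within the level range of the cytosolic members. The differences between these small groups of synthetase genes were not tested. Summed over the 19 cytosolic genes the level was 3455, 3476 and 3296 CPM untreated and 3901, 3999 and 3774 CPM after IFN-gamma. The groups of this sum did not overlap, and the ratio of their means was 1.14.

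Mitochondrial synthetase genes gave between 16 and 787 counts in a library, and their standard errors ran from 0.09 to 0.37, against 0.06 to 0.10 for the cytosolic genes. Tars2, the mitochondrial threonyl-tRNA synthetase gene, had 13.3, 12.2 and 14.9 CPM untreated and 18.3, 20.6 and 16.8 CPM after IFN-gamma. The groups did not overlap and it rose by 0.46 ± 0.16 (adjusted p = 0.045). The call was lost without untreated replicate 1 or 2 (adjusted p = 0.104 and 0.147), without IFN-gamma replicate 1 or 2 (0.0882 and 0.181), with DESeq2 (0.0951), and under upper-quartile or library-total scaling (0.0743 and 0.0749). It was also lost with the replicate number as a block (adjusted p = 0.0548).

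Among mitochondrial genes that did not pass, Nars2 (asparagine) had 5.03, 5.16 and 4.29 CPM untreated and 2.89, 2.23 and 3.20 CPM after IFN-gamma. All treated libraries were below all untreated ones, at 20 to 47 counts a library, and the change of -0.79 ± 0.35 had an adjusted p of 0.11. Mars2 (methionine) had 3.96, 4.08 and 3.66 CPM untreated and 2.79, 2.46 and 2.61 CPM treated, a change of -0.57 ± 0.37 (adjusted p = 0.32). Vars2 (valine) had 23.3, 26.8 and 25.9 CPM untreated and 23.1, 20.9 and 20.6 CPM treated, a change of -0.23 ± 0.14 (adjusted p = 0.28). In Mars2 and Vars2 as well the treated libraries were all below the untreated ones. Sars2 (serine) went the other way, with 3.32, 2.17 and 3.24 CPM untreated and 4.28, 4.24 and 4.50 CPM treated, a change of 0.56 ± 0.35 (adjusted p = 0.31). With Tars2, groups did not overlap upward in 2 and downward in 3 of the 16 mitochondrial genes. Over all genes tested these shares were 16.2% and 15.6%.

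The other mitochondrial genes had groups that overlapped. Wars2 (tryptophan) had the highest value of them, 0.47 ± 0.24 (adjusted p = 0.18), with 14.1 CPM in IFN-gamma replicate 2 against 9.50 and 7.82 CPM in the other treated libraries. Pars2 (proline) and Fars2 (phenylalanine) had 0.16 ± 0.24 and 0.10 ± 0.27. Iars2, Yars2, Rars2, Cars2, Ears2, Aars2 and Hars2, which serve isoleucine, tyrosine, arginine, cysteine, glutamate, alanine and histidine, lay between -0.06 and 0.05. For 8 of the 15 genes that did not pass, the 95% interval held 0.32, so that at this depth they were not separated from a rise as large as the median of the cytosolic genes that rose. For the other 7 the interval lay wholly below 0.32. Hars and Hars2 are neighbours read in opposite directions, and how reads were counted by strand is not given in the sources used here.

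Lars2, which encodes mitochondrial leucyl-tRNA synthetase, had 39.9, 46.2 and 27.7 CPM untreated and 25.0, 35.6 and 31.7 CPM after IFN-gamma. Its change of -0.30 ± 0.16 did not pass (adjusted p = 0.23). The ribosomal precursor row Rn45s had 97044, 79171 and 56193 CPM untreated and 62496, 76607 and 66962 CPM after IFN-gamma. The 3 libraries with the lowest Lars2 values, IFN-gamma replicates 1 and 3 and untreated replicate 3, were also the 3 with the lowest Rn45s values. Without untreated replicate 3 Lars2 was called lower, with -0.48 (adjusted p = 0.012). The part of ribosomal RNA in the Lars2 values was not tested.

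**Figure D3:**
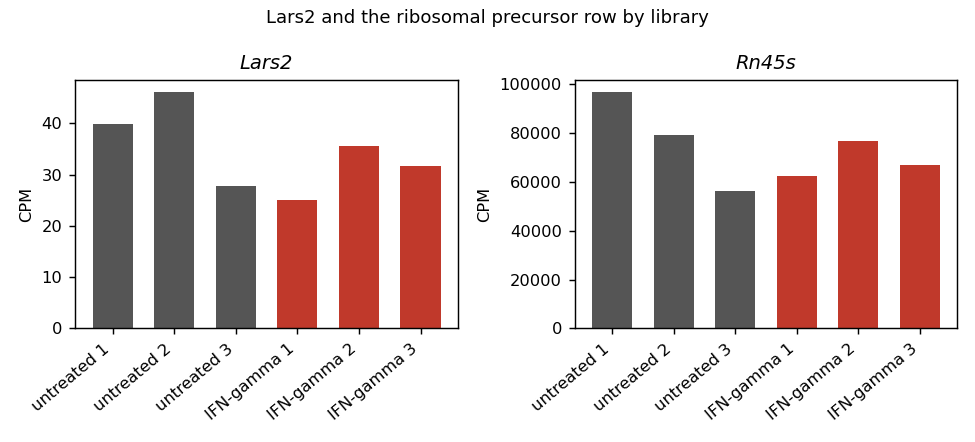
CPM of Lars2 (left) and of the ribosomal precursor row Rn45s (right) in each of the 6 libraries, untreated in grey and IFN-gamma in red. Untreated replicate 3 is the lowest untreated library in both panels, at 27.7 and 56193 CPM.

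For enzymes that serve the same amino acid, 16 pairs of a cytosolic and a mitochondrial gene were set side by side. The cytosolic gene had the higher log2 fold change in 13 pairs and the lower in 3, and the median difference was 0.14, or 0.22 without untreated replicate 1. The differences ranged from -0.54 ± 0.36 (Sars against Sars2) to 1.04 ± 0.35 (Nars against Nars2), with the standard errors of both genes combined. The difference was more than 2 times its standard error in 3 pairs, Nars against Nars2, Lars against Lars2 (0.50 ± 0.17) and Rars against Rars2 (0.45 ± 0.20), in each with the cytosolic gene higher. The Nars counts per Nars2 count, a ratio not corrected for length, were 63.4, 60.8 and 69.1 in untreated and 132, 178 and 102 in IFN-gamma libraries, with no overlap. Counts of Rars per Rars2 count ran from 13.2 to 17.1 in untreated and from 17.7 to 24.7 in treated libraries, also without overlap. The ratio separated the other way for Sars per Sars2, with 136, 209 and 126 untreated and 105, 115 and 88.0 treated. For Lars per Lars2 it overlapped, with 4.37, 4.09 and 6.70 untreated and 7.88, 5.85 and 7.10 treated. Mars per Mars2 was the remaining pair without overlap, from 51.2 to 58.0 untreated and from 74.9 to 87.0 treated. The ratio thus separated upward in 3 of the 16 pairs and downward in 1. No share for other gene pairs is given. For single genes, the groups did not overlap upward in 16.2% and downward in 15.6% of all genes tested. Nars2, Mars2 and Sars2 did not pass and had at most 47 counts in a library. Threonine was the amino acid for which both genes were called higher, with Tars at 0.33 and Tars2 at 0.46. Pairs share members, and the differences were not tested across pairs. The summed level of the 16 mitochondrial genes was 249, 262 and 249 CPM untreated and 252, 256 and 233 CPM after IFN-gamma, and the groups overlapped.

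**Figure D4:**
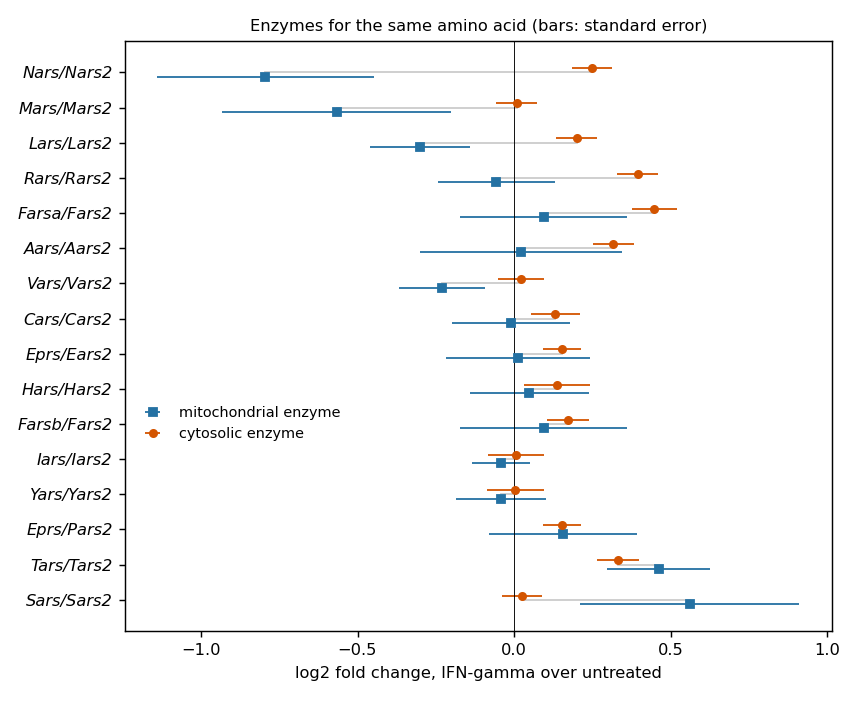
Log2 fold change of the cytosolic (orange circles) and the mitochondrial enzyme (blue squares) for the same amino acid, with standard errors, ordered by the difference. Nars/Nars2 at the top differ by 1.04 and Sars/Sars2 at the bottom by -0.54.

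Genes that work with the synthetases were read against the 9.88% called higher and 7.56% called lower over all genes tested. None of the 3 scaffold genes of the multi-tRNA synthetase complex passed, with edgeR, DESeq2 or limma, and 1 had an unadjusted p under 0.05 (Aimp2). In that set Aimp1 had 0.13 ± 0.07 (adjusted p = 0.26), Aimp2 0.18 ± 0.09 (adjusted p = 0.16) and Eef1e1 0.01 ± 0.15 (adjusted p = 0.98). Of 8 genes for editing and for processing of aminoacyl-tRNAs, 2 rose (25%) and 0 fell, and DESeq2 called 0. Dtd1, a deacylase that removes D-amino acids from tRNAs, rose by 0.48 ± 0.15 (adjusted p = 0.021). It did not pass with DESeq2, nor when untreated replicate 1, IFN-gamma replicate 1 or IFN-gamma replicate 2 was left out. Qrsl1, a subunit of the amidotransferase that makes mitochondrial glutaminyl-tRNA, rose by 0.68 ± 0.22 from 6.75 ± 1.77 to 10.9 ± 0.34 CPM (adjusted p = 0.028). Qrsl1 did not pass with DESeq2, nor on leaving out untreated replicate 1 or 2 or either of IFN-gamma replicates 1 and 3. The adjusted p in these fits went up to 0.147 for Dtd1 and 0.166 for Qrsl1. Prorsd1 had the largest value against the direction of that list (-0.26 ± 0.14, adjusted p = 0.25), and Aarsd1, named for its relation to alanyl-tRNA synthetase, had 0.07 ± 0.12.

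Of 5 cytosolic elongation factor genes, Eef1g rose by 0.24 ± 0.07 (adjusted p = 0.0072) and 0 fell. Its protein belongs to the elongation factor complex with which valyl-tRNA synthetase is associated. Eef1g did not pass without untreated replicate 1 or IFN-gamma replicate 1 (adjusted p up to 0.0715). Eef2, the translocase, had -0.06 ± 0.05 and Eef1d -0.12 ± 0.07. None of the 6 mitochondrial initiation and elongation factor genes passed, the lowest adjusted p being 0.069 for Gfm2 (-0.43 ± 0.16). Gfm2 was also the 1 gene of them at an unadjusted p under 0.05, and it passed as lower under upper-quartile or library-total scaling (lowest adjusted p = 0.036). Of 77 mitochondrial ribosomal protein genes, 5 rose (6.49%) and 3 fell (3.9%), beside 9.88% and 7.56% over all genes tested. Their median was 0.10, and 51 of the 77 had a positive value. Groups did not overlap upward in 17 and downward in 5 of them, beside 16.2% and 15.6% of all genes tested. Those that rose were Mrpl13, Mrpl16, Mrpl22, Mrpl27 and Mrpl39, and those that fell were Mrpl33, Mrpl34 and Mrps21, all named after their values were seen.

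The integrated stress response list holds ATF4 and genes known as its targets, among which cytosolic synthetases are also counted. Of its 28 tested genes, 8 rose (28.6%) and 1 fell (3.57%), with a median of 0.15. Over all genes tested the shares were 9.88% and 7.56%. Among genes in the range of the cytosolic members 15.6% were higher and 11.9% lower, but the levels of this list reach beyond that range on both sides. The median of the list was 0.24 without untreated replicate 1. Those that rose were Nupr1 (0.70 ± 0.13, adjusted p = 0.00014), a stress-induced chromatin protein, Phgdh (0.40 ± 0.08, adjusted p = 0.00046) and Psat1 (0.24 ± 0.06) of serine synthesis, Mthfd2 (0.25 ± 0.06) of mitochondrial folate metabolism, the glutathione-degrading enzyme gene Chac1 (0.42 ± 0.10), Slc7a11, Atf3 and Cth. Atf3 did not pass without untreated replicate 2 or IFN-gamma replicate 1 (adjusted p up to 0.102). Cth (0.38 ± 0.13, adjusted p = 0.033), whose enzyme makes cysteine, passed in 7 of 15 alternatives, and failed on leaving out untreated replicate 2, untreated replicate 3, IFN-gamma replicate 1 or IFN-gamma replicate 3 (adjusted p up to 0.154). Vldlr was lower by -0.24 ± 0.08 (adjusted p = 0.039) and passed in 9 of 15, failing on leaving out untreated replicate 2, untreated replicate 3, IFN-gamma replicate 1 or IFN-gamma replicate 2 (adjusted p up to 0.25). In the fits without 1 library between 6 and 10 genes of the list were higher, beside 7.97% to 10.5% of all genes tested in them.

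Atf4 itself had 767, 754 and 761 CPM untreated and 822, 797 and 813 CPM after IFN-gamma. The groups did not overlap, and the change of 0.09 ± 0.05 did not pass (adjusted p = 0.25). Asns, the asparagine synthetase gene and a standard ATF4 target, had 0.21 ± 0.08 (adjusted p = 0.075) and passed without IFN-gamma replicate 2 (adjusted p = 0.049). Trib3, a pseudokinase gene, had 0.14 ± 0.10 (adjusted p = 0.40), and Ddit3, which encodes the stress transcription factor CHOP, -0.04 ± 0.07 (adjusted p = 0.78). Of the 4 kinase genes that start the response by phosphorylating eIF2alpha, 1 rose. Eif2ak2, the interferon-inducible kinase that senses double-stranded RNA, rose by 1.62 ± 0.10 from 28.5 ± 1.82 to 87.3 ± 1.62 CPM (adjusted p = 4.0e-17). Eif2ak4, which senses uncharged tRNA, had 0.01 ± 0.13, and Eif2ak1 and Eif2ak3 did not pass (adjusted p = 0.071 and 0.31). Eif2ak1 passed as higher without untreated replicate 2 (adjusted p = 0.042), which makes 2 of the 4.

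**Figure D5:**
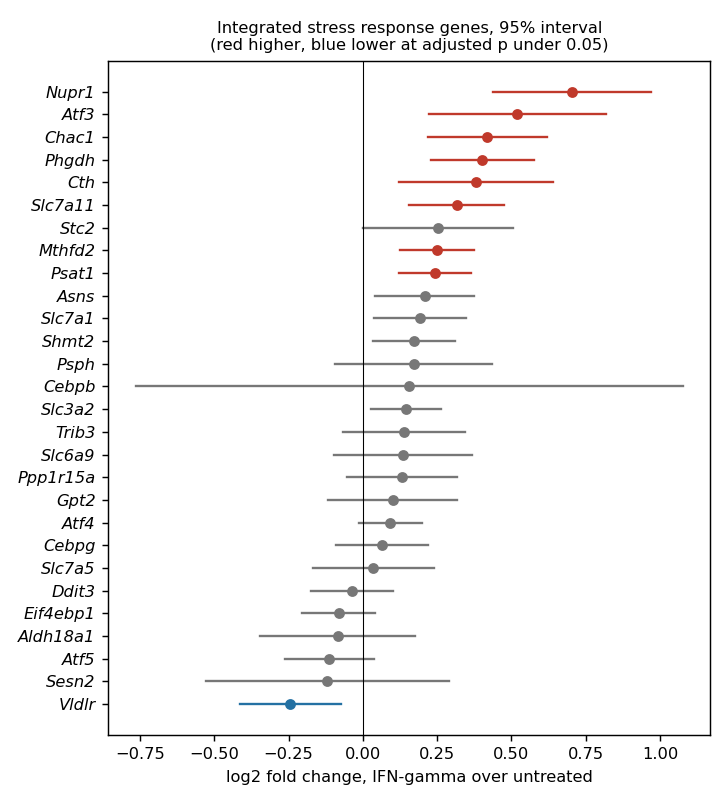
Log2 fold change with 95% interval for 28 genes of the integrated stress response; red genes were called higher and blue lower. The 8 red genes lie between 0.24 (Psat1) and 0.70 (Nupr1), and Atf4 lies at 0.09.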

How the data were processed

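RNA-seq was measured in 6 libraries. Per the labels, 2 library kits are named for every sample, 1 of which reads 3' ends, and which gave these counts is not stated, so levels of different genes are not compared. Per the submitters' processing notes, Bowtie2 and edgeR were used, with no version, and the build is hg19, a human one, for mouse samples. The table deposited by the authors holds raw counts per gene, which are whole numbers, and log2 normalized values, used here only in an alternative test. Samples were grouped by title. No library repeats another, since counts of each pair differed beyond sampling noise.

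The test was edgeR 4.0.16 under R 4.3.3 (filterByExpr, TMM factors, robust quasi-likelihood fit, Benjamini-Hochberg adjustment over 12191 genes, no covariate). A run on simulated counts checked only that median estimates lay near the true changes, with a tolerance about as large as the smallest synthetase rise called here. Its rate of calls at changes of this size is not given. Symbols that RefSeq now writes with a final 1 (Aars1 for Aars) were matched to it. CPM used TMM-scaled library sizes. Intervals are 95% intervals of the fit. Depth ranged from 7302687 to 10861336 counts.

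The members, lists and the rule for named genes were chosen with earlier results of these data known. Every member was described. Per-library values were given for members past the threshold, members with groups that did not overlap, Eprs, Gars, Kars, Lars2 and Qars. From each list the genes with the 2 smallest adjusted p, the highest CPM (used only to pick a name) and the largest change against its majority were eligible, and Atf4, Asns, Chac1, Trib3, Ddit3, Aimp1, Aimp2 and Eef1e1 were always named. Other list genes (Psat1, Mthfd2, Slc7a11, Atf3, Cth and those described for small lists) were named after their values were seen. Some synthetase genes are not reported here. Alternatives were other scaling factors, no filter, DESeq2 1.42.0, limma 3.58.1 on the log2 values, thinned counts, a replicate block, Rn45s left out and leaving out each library.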

Additional observations from a re-analysis of the deposited data

How the results depend on the processing

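Over 15 alternatives, 501 of 525 member values stayed on their side of the threshold, 18 lost a call (Gars, Lars and Tars2) and 6 gained one (Dars, Eprs, Farsb and Lars2). None of the called values changed sign, while 56 values that passed in neither fit did. With upper-quartile factors and with total counts alone, 1 cytosolic gene was lower and the cytosolic median was 0.10 and 0.11. The median over all genes tested was -0.06 and -0.05 in these fits, against -0.00825 with TMM factors. Under both scalings, and with DESeq2, the count of mitochondrial genes called was 0. Without 1 library, 6 to 9 cytosolic genes were higher and 0 to 1 lower (6 to 10 called in all), with a median of 0.13 to 0.22. Over all genes tested in the fits without 1 library, 7.97% to 10.5% were called higher and 5.28% to 8.17% lower. Of mitochondrial genes 0 to 2 were called, 0 to 1 higher and 0 to 1 lower, and the median pair difference was 0.11 to 0.22. The cause of these shifts was not tested. Replicate numbers did not pair the libraries, since deviations of same-numbered libraries correlated at 0.0028, 0.041 and -0.0014 across genes. With the replicate block 2226 genes were called instead of 2126, 8 cytosolic genes were called and 0 mitochondrial ones. Mitochondrial genes had 16 to 787 counts in a library and cytosolic genes 321 to 4823, with median standard errors of 0.21 and 0.07. The part of low counts in the number of mitochondrial calls was not tested.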

Other observations

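IFN-gamma replicate 2 held the lowest treated value of Kars (283 CPM against 344 and 361 CPM) and of Cebpb, a C/EBP transcription factor gene of the stress response list (114 CPM against 239 and 246 CPM). Untreated libraries had 190, 161 and 186 CPM of Cebpb. Without that library Cebpb was called higher, with a log2 fold change of 0.44 (adjusted p = 2.7e-06), whereas with it the change was 0.16 ± 0.34 (adjusted p = 0.83). These genes were singled out after their values were seen.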
